A study of Mus musculus with 12 samples.

Results

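The gene Fn1 encodes fibronectin, and it was described here through the 46 exon probes that carry its name among 165984 different probes on a mouse exon array. The members were all probes that are no control and whose gene name is Fn1, which is 1 of 19506 gene names. Fn1 was chosen by its measured change between the turns of the cochlea on these same arrays, which was uneven over its exon probes, so its own differences between turns are given as a description and without a test. RNA came from the cochlea of untreated male C57BL/6 mice aged 6 weeks, divided into the apical, middle and basal turn (apex, middle and base), with 4 arrays for each turn and 25 ng of total RNA for each array. Each turn was taken whole, with the organ of Corti, the spiral ganglion neurons, the stria vascularis, the spiral ligament and the spiral prominence. The values are therefore averages over many cell types, and fewer cells of a type and less RNA per cell cannot be told apart. Each array lay on the slide of its turn, 3 slides in all, so the turn and the slide cannot be told apart. The labels give separate samples for each turn, numbered in the same way, and the study dissected 4 mice, so the spread given below is that between these samples.

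Fibronectin is a large secreted glycoprotein that pairs into dimers and is assembled by cells into fibrils of the extracellular matrix. It is built of repeated units of types I, II and III, and integrins on the cell surface bind it at an arginine-glycine-aspartate site in its type III units. A pair of type III units, named extra domain B (EDB) and extra domain A (EDA), are each encoded by an exon that is either kept or skipped when the transcript is spliced, and the V region is a further site of splicing. Plasma fibronectin, made in the liver, lacks both extra domains, and the fibronectin that other cells place in their matrix can hold them. In the cochlea, fibronectin is known as a component of the basilar membrane, the sheet that carries the organ of Corti.

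The probes are 60 bases long and lie on the minus strand of chromosome 1 (mm9), all in exons of Fn1. Their positions are given below as bases from the 5′ end of the transcript, as in the array's annotation. The array lists 44 of them under all 3 Ensembl transcripts of the gene that it names, and these are called common probes here. The EDB probe is listed under 1 of the 3 transcripts and the EDA probe under 2 of the 3. No Fn1 probe lies between bases 6433 and 6840, the stretch in which the V region falls, so splicing of the V region was not measured. The sequences shown are those of the extra domain probes, of the probe over the integrin site, and of the common probes with the largest and the smallest difference between apex and base. Capitals mark the probes of exons that only some transcripts hold, and in the integrin site probe they mark the codons CGTGGGGAC of the arginine-glycine-aspartate site.
EDB probe, base 4179, chr1:71660353-71660412: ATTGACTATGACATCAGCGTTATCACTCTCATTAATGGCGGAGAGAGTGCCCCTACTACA
EDA probe, base 5364, chr1:71650430-71650489: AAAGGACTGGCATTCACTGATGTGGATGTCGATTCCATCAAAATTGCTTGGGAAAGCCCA
integrin site probe, base 5020, chr1:71653277-71653336: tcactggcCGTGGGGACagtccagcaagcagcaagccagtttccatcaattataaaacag
largest common difference, base 502, chr1:71697181-71697240: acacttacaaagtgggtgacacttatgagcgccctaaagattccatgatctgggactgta
smallest common difference, base 6251, chr1:71645821-71645880: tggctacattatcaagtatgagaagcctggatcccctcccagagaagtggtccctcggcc

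The arrays were of like brightness. By the scanner software's own test, the share of spots well above background ran from 77.4% to 81.4%, and no Fn1 spot was saturated. Signals are given in fluorescence units after each array was scaled to the same 75th percentile, and differences between turns are those of mean log2 signals. The probes are read as measured where they were well above background on all arrays, which held for 43 of the 46. All 10 cochlear marker genes on the array that were looked up, such as Coch and Tecta, were measured.

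Averaged over its 46 probes, Fn1 was highest in the apex and lowest in the base. The 4 apical arrays read 676.7, 708.5, 555.4 and 549.4 units. The middle arrays read 219.9, 240.1, 288.7 and 251.4 units. The basal arrays read 156.9, 167.8, 164.9 and 175.8 units. No array of one turn reached into the range of another, and apical arrays 1 and 2 stood above apical arrays 3 and 4. The means were 622.5 ± 82.0, 250.1 ± 28.9 and 166.4 ± 7.82 (SD, n = 4 each). The apex was 3.72-fold above the base, a log2 difference of 1.90 (SE 0.10), and 2.49-fold above the middle turn. The middle turn was 1.5-fold above the base. Most of the gradient therefore lay between the apex and the middle turn. By size of difference Fn1 ranked 80 of 19505 genes for apex over base, 37 for apex over middle and 1252 for middle over base.

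The gradient was shared by nearly all exon probes. Of the 46 probes, 43 read 2-fold or more above the base in the apex with no overlap of arrays, where 4.17% of all probes on the array were. Against the middle turn the count was 40 of 46, and the share of all probes was 0.543%. Between middle and base it was 1 of 46, the EDB probe, and the share of all probes was 2.05%. These shares stand as background only, since Fn1 was chosen for this change. Over the 44 common probes the median difference between apex and base was 1.91 on the log2 scale, or 3.76-fold, with quartiles of 1.80 and 2.01. The same median was 1.32 for apex over middle and 0.56 for middle over base.

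The common probes kept this level along the transcript. The 24 common probes 5′ of EDB had a median log2 difference between apex and base of 1.99, with a range from 0.99 to 2.20. The 7 probes between EDB and EDA had a median of 1.86, and the 13 probes 3′ of EDA had a median of 1.90. The integrin site probe read 633.8, 676.4, 513.5 and 491.8 units in the apex and between 135.5 and 153.3 units in the base. Its difference between apex and base, 2.00 on the log2 scale, was close to the median of the common probes. The most 3′ probe, at base 8233, had a difference of 1.82, so the gradient was present at both ends of the transcript.

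**Figure D1:**
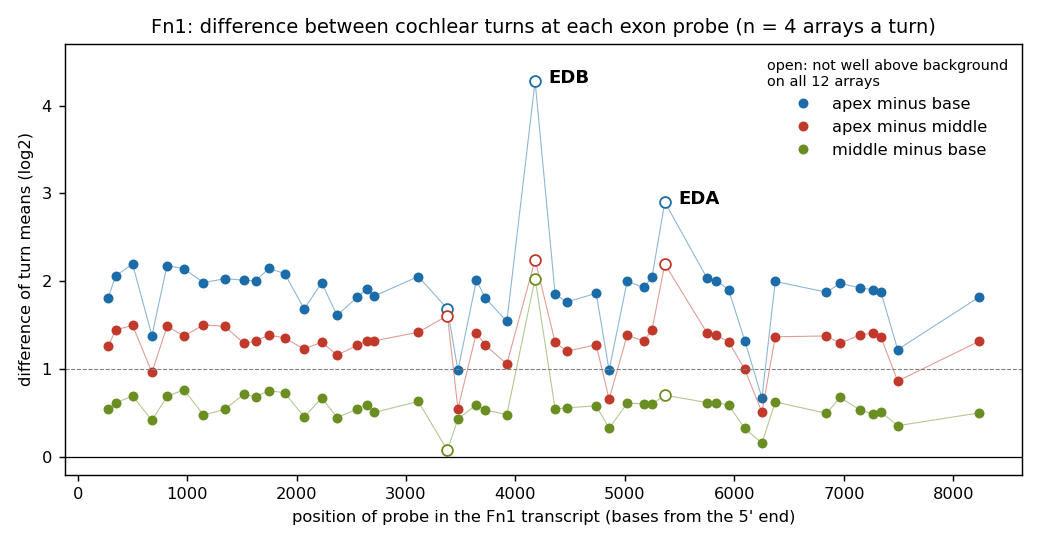
Each point is 1 of the 46 Fn1 probes, placed by its position in the transcript (x axis, bases from the 5′ end), with the difference of turn means on the log2 scale (y axis, n = 4 arrays a turn) for the 3 comparisons; open points are the 3 probes that were not well above background on all 12 arrays, and the dashed line marks 2-fold. The common probes lie near 1.91 for apex minus base, and the EDB probe stands highest in apex minus base, at 4.28, and in the other comparisons too.

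The EDB probe changed most of all Fn1 probes. Its apical arrays read 439.0, 441.7, 365.9 and 326.0 units. The middle arrays read 75.36, 61.32, 106.5 and 92.83 units. The basal arrays read 13.97, 23.80, 25.73 and 19.11 units, and none of these was well above background. The 3 turns did not overlap, and the base had only an upper bound for this exon. In processed signals the apex was at least 14.4-fold above the base, when the base is set to the lowest signal well above background. This is a bound under that setting only, and the ratio depends on how the background was removed. The measured log2 difference was 4.28. The apex was 4.74-fold above the middle turn, where all arrays were well above background. By the same setting the middle turn was at least 3.03-fold above the base. Under this setting, the bound for apex over base lay above the 3.76-fold of the common probes.

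The level of EDB relative to the rest of Fn1 was read within each array, as the log2 signal of the EDB probe minus the median of the 44 common probes. This difference ran from -0.71 to -0.59 in the apex. It ran from -2.01 to -1.30 in the middle turn. In the base it ran from -3.51 to -2.68. The ranges of the turns did not overlap, and the order was apex, middle, base. The means were -0.66 ± 0.06, -1.55 ± 0.32 and -3.05 ± 0.38 (SD, n = 4 each). The apex exceeded the base by 2.39 log2 units and the middle turn by 0.88, and the middle turn exceeded the base by 1.5. Because the basal signal was not well above background, the difference from the base is that of the measured signals and depends on how the background was removed. Taken as the turn difference of the EDB probe minus the median turn difference of the common probes, it was 2.37 for apex over base and 0.92 for apex over middle. With normexp correction of the mean signals and an offset of 50 these were 0.82 and 0.51, in the same direction.

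The EDA probe was dim, and its change relative to the rest of Fn1 was not settled by these arrays. Its apical arrays read 88.25, 81.96, 81.77 and 75.89 units, all well above background. The middle arrays read 7.698, 15.08, 39.34 and 22.26 units, with 1 of the 4 well above background. The basal arrays read 9.386, 6.348, 18.38 and 13.13 units, with none above it. The apex stood above both other turns, which overlapped each other. The measured log2 difference between apex and base was 2.90, and the bound was at least 3.01-fold, which is below the 3.76-fold of the common probes. Within arrays the EDA probe minus the median of the common probes had means of -2.92 ± 0.18, -3.75 ± 0.85 and -3.93 ± 0.65 for apex, middle and base (SD, n = 4 each). The apical and middle arrays overlapped in this measure. The turn difference of the EDA probe minus the median of the common probes was 0.99 for apex over base, and with normexp correction at an offset of 50 the direction turned, to -0.74.

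**Figure D2:**
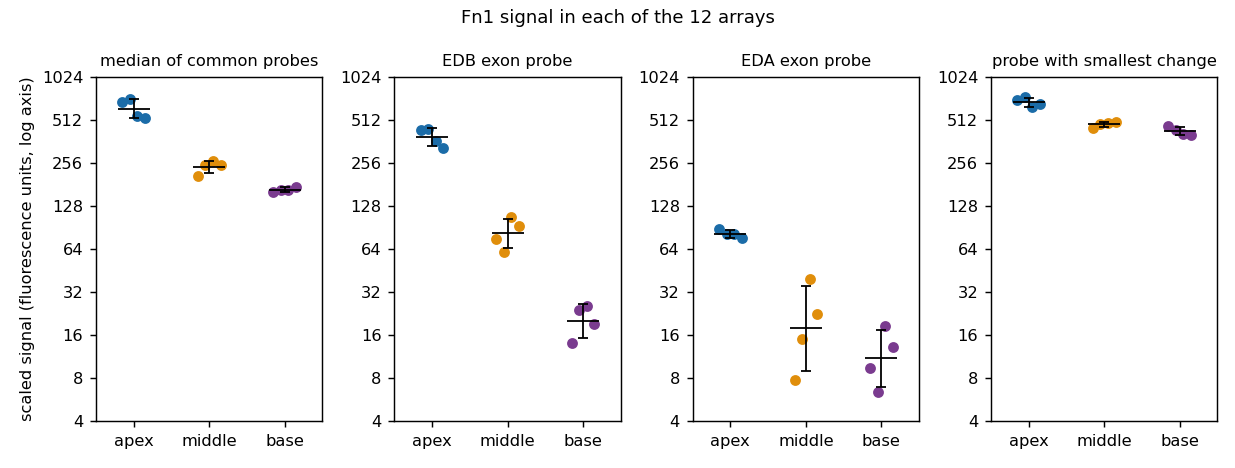
Scaled signal (y axis, fluorescence units on a log axis) of each of the 12 arrays by turn (x axis) for the median of the 44 common Fn1 probes, the EDB probe, the EDA probe and the common probe with the smallest change; each point is an array, and bars give the mean of log2 signals with its SD (n = 4). The EDB probe fell from 326.0 units or more in the apex to 25.73 or less in the base, and the probe with the smallest change stayed at 401.5 units or more everywhere.

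**Figure D3:**
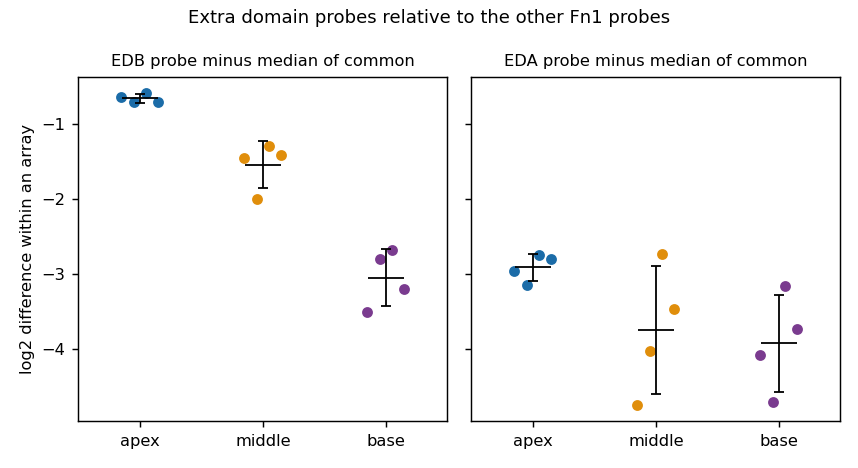
The log2 signal of the EDB probe and of the EDA probe minus the median of the 44 common probes of the same array (y axis), by turn (x axis); points are arrays and bars give mean and SD (n = 4). The turns are apart for EDB, at means of -0.66, -1.55 and -3.05, and overlap for EDA.

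A few common probes changed much less than the others. The probe at base 6251 read 707.6, 742.1, 629.7 and 658.6 units in the apex. It read 453.0, 477.4, 489.4 and 495.4 units in the middle turn. It read 466.6, 436.2, 411.0 and 401.5 units in the base. The apex was above the others by a smaller step, 1.60-fold over the base, and middle and base overlapped. The probes at bases 3474 and 4855 each had a log2 difference between apex and base of 0.99, and those at bases 7491 and 6094 had 1.22 and 1.33. At the other end of the common probes were those at bases 502, 817 and 1748, with 2.20, 2.18 and 2.15. The probe at base 502 read between 490.3 and 719.7 units in the apex and between 111.2 and 154.5 in the base. A further probe, at base 3378, was well above background only in the apex, where it was at least 2.26-fold above the base.

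Probes with a higher signal in the base tended to show the smaller difference. Over the 44 common probes, the Pearson correlation of the log2 difference between apex and base with the mean log2 signal in the base was -0.438. It was -0.261 with the position in the transcript and -0.218 with the GC content of the probe. The basal signal enters both sides of that correlation, and all probes share the same arrays and RNA, so these values are a description only. Background that a probe picks up and other transcripts that bind to it were not measured for single probes.

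The spread over probes was set beside that of the 1744 genes with 20 or more probes. The SD over the 46 Fn1 probes of the log2 difference between apex and base was 0.511, and the median over these genes was 0.217, which put Fn1 at rank 147. For apex over middle the SD was 0.304 against a median of 0.165, and for middle over base it was 0.260 against 0.164. With only probes well above background on all 12 arrays, which leaves out EDB and EDA, the SD for apex over base was 0.338 over 43 probes, rank 46 of 1099 genes. Since Fn1 was chosen for this unevenness, its ranks are a description and support nothing further.

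**Figure D4:**
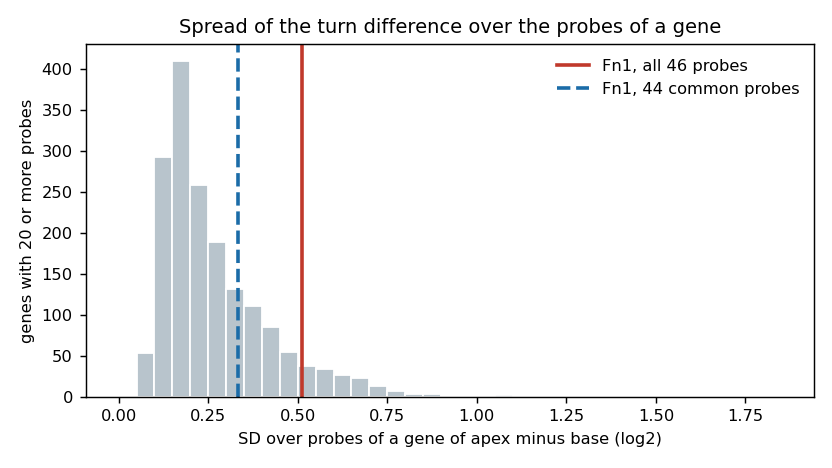
Histogram of the SD over the probes of a gene of the log2 difference between apex and base (x axis) for the 1744 genes with 20 or more probes (y axis, number of genes). The solid line marks Fn1 with all 46 probes, at 0.511, and the dashed line Fn1 with its 44 common probes, at 0.334.

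The spots of each probe and the arrays within a turn show how exact these values are. Most Fn1 probes were printed at a pair of spots, which differed by a median of 0.10 log2 units. For the EDB probe the largest difference between its spots was 0.126 for the apex and 0.968 over all arrays, and for the EDA probe 0.511 and 1.37. When each probe was set against its turn means, the common probes moved together from array to array, with a median pairwise correlation of 0.735 over the 12 arrays. The EDB probe followed their median with a correlation of 0.615 and the EDA probe with 0.501.

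Genes that bind, regulate, splice or degrade fibronectin were then tested with limma, as 80 genes in 5 lists. A gene was called when its turn means lay 2-fold or more apart and it passed an adjusted p of 0.05 in the moderated F test of limma across the turns. For apex against base, 4 of the 80 genes (5%) were called, and 4.39% of all 19505 genes were. For apex against middle 1 of the 80 was called, beside 0.436% of all genes. For middle against base none was called by this limma rule, beside 2.66% of all genes, and 26 of the 80 passed limma's contrast test at any size, as did 20.9% of all genes. The share of called genes in the lists was thus near that of all genes for apex against base. By limma's contrast test at any size, 28 of the 80 were higher in the apex, beside 17.6% of all genes, and 21 of the 80 were lower there, beside 21.6%. The median of the 80 was 0.08 log2 units and that of all genes was -0.04. These counts of small differences depended on the scaling. With scaling to the spike-in probes, which moved the median of all genes to -0.45, 5 were higher at the apex and 45 were lower there, and with scaling to the median of each array it was 20 and 25.

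All 4 called genes were matrix partners of fibronectin. Tnc encodes tenascin C, a matrix glycoprotein that binds fibronectin, and it was higher in the apex. Its apical arrays read 56.42, 78.91, 69.32 and 117.9 units. The middle arrays read between 14.94 and 15.48 units and the basal arrays between 10.44 and 15.56. Only the apex stood apart, and the middle and basal ranges overlapped. The log2 difference was 2.60 (SE 0.19) over the base and 2.36 over the middle turn, with limma adjusted p of 3.4e-06 and 0.00012. Of the 25 Tnc probes, 4 were well above background on any basal array and 5 on any middle array. The Tnc difference between apex and base was 0.87 with normexp correction. It was 0.71 with probes above background on all 12 arrays, which left 1 Tnc probe. Tnc was not called under either setting. Fbn2 encodes fibrillin 2, a microfibril protein, and read 46.35 ± 3.33, 31.28 ± 3.71 and 20.93 ± 1.72 units in apex, middle and base (SD, n = 4 each). Its turns did not overlap, and its log2 difference between apex and base was 1.15 (SE 0.09, adjusted p = 6e-06). Of its 63 probes, 26 were well above background on any basal array. Its difference fell below the 2-fold limit, and the call ended, with quantile normalization (0.92), spike-in scaling (0.73), 16 added to each signal (0.67), probes above background on all 12 arrays (0.47) and normexp correction (0.30).

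Dcn and Lox ran the other way. Dcn encodes decorin, a small proteoglycan that binds collagen fibrils and fibronectin. Its apical arrays read 11720, 11300, 9622 and 10120 units, the middle arrays between 15770 and 18710 units, and the basal arrays 29610, 32340, 21020 and 32580 units. The order of the turns was the reverse of that of Fn1, with no overlap. The log2 difference between apex and base was -1.42 (SE 0.13, adjusted p = 1.6e-05). Lox encodes lysyl oxidase, which cross-links collagen and elastin, and read 307.3 ± 36.4, 510.0 ± 24.9 and 754.8 ± 92.9 units (SD, n = 4 each). Its log2 difference was -1.30 (SE 0.11, adjusted p = 6.8e-06). On all 12 arrays, every probe of both genes was well above background.

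Over the whole list of 25 matrix partners, 12 rose toward the apex at any size and 7 rose toward the base, by limma's contrast test, where 17.6% and 21.6% of all genes did. The balance turned with scaling to the spike-in probes, to 5 and 10. Among those singled out after their values were seen, Fbn1, which encodes fibrillin 1, had a log2 difference of 1.00, just short of the 2-fold limit. It passed that limit when apical array 1, apical array 4 or basal array 3 was left out. Of the 65 Fbn1 probes, 24 were well above background on all 12 arrays. Ltbp1, which tethers latent TGF-beta to the matrix, had 0.89 (adjusted p = 1e-06), and Fbln1, fibulin 1, had 0.78 (adjusted p = 2.1e-05). These 3 were higher in the apex under every scaling. The collagen genes Col1a1 and Col1a2, singled out in the same way, did not pass, with log2 differences of 0.23 (SE 0.41) and -0.09 (SE 0.17). Apical array 4 stood apart for both. It read 1328 units for Col1a1, where the other apical arrays read 259.9 to 478.3, and 2550 for Col1a2, where they read 1480 to 1677. It also read 34.57 units for Postn, where they read 14.88 to 16.06, and 89.75 for Mmp9, where they read 33.2 to 45.06. Among the apical arrays it was highest for Timp1, Ctsk and the called gene Tnc too, and lowest for Fbn2 and Hspg2. Without this array the Tnc difference between apex and base was 2.4 log2 units, and Tnc stayed called.

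The receptors of fibronectin changed little. None of the 15 was called, and their log2 differences between apex and base were between -0.58 and 0.67. By the contrast test at any size, 3 rose toward the apex and 4 toward the base (17.6% and 21.6% of all genes), and with scaling to the spike-in probes the split was 0 and 9. Itgb5, which encodes an integrin beta chain and gave the highest mean signal of the list, had -0.29 (adjusted p = 0.027), and it did not pass with quantile normalization. Itga8, whose integrin binds the arginine-glycine-aspartate site, read 335.8 ± 13.5 units in the apex and 501.2 ± 37.3 in the base (SD, n = 4 each), a log2 difference of -0.58 (adjusted p = 4.2e-05). Itga4, whose integrin binds the V region, read 38.36 ± 5.68 and 23.94 ± 1.56 units, a difference of 0.67 (adjusted p = 0.0032) that did not pass with scaling to the spike-in probes. Of the 27 Itga4 probes, 5 were well above background on all 12 arrays. Itga5 and Itgb1, the chains of the classical fibronectin receptor, did not pass, with -0.13 (SE 0.09) and 0.05 (SE 0.06), and their calls depended on the scaling. With spike-in scaling both passed as lower in the apex, at -0.54 and -0.37. With quantile normalization Itga5 passed as lower, at -0.30 (adjusted p = 0.025), and Itgb1 as higher, at 0.17 (adjusted p = 0.037). Itga8, Itga4, Itga5 and Itgb1 were singled out after their values were seen.

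No gene of the TGF-beta list, whose pathway is known to raise fibronectin, was called. Of its 12 genes, 5 rose toward the apex and 3 toward the base by the contrast test at any size, beside 17.6% and 21.6% of all genes. Tgfbr2, a receptor chain with the highest signal of the list, had a log2 difference between apex and base of -0.57 (adjusted p = 0.00076). The ligand Tgfb1, singled out after its value was seen, had -0.59 (adjusted p = 0.001). The split was 0 and 7 with scaling to the spike-in probes.

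Splicing regulators were tested because the EDB and EDA exons are kept or skipped by such proteins. None of the 15 was called, and 5 rose toward the apex and 4 toward the base by the contrast test at any size (17.6% and 21.6% of all genes). With scaling to the spike-in probes these counts were 0 and 11. Srsf5, the gene of this list with the highest signal, did not pass, with a log2 difference of -0.06 (SE 0.11). Those higher in the apex, named after their values were seen, were led by Rbfox1 with 0.74, Ptbp2 with 0.54, Rbfox2 with 0.49 and Hnrnpa1 with 0.47. Rbfox1 and Rbfox2 encode RNA-binding proteins of neurons and other tissues that are known to act on alternative exons. Rbfox2 read 632.5 to 700.6 units on apical arrays, 600.6 to 729.0 on middle arrays and 423.4 to 573.5 on basal arrays. Apex and middle overlapped, and the base was lower than both, with adjusted p of 0.0021 against the apex and 0.010 against the middle turn. None of these 4 passed with scaling to the spike-in probes. Markers of spiral ganglion neurons moved with them: 7 of 8 were called higher in the apex, beside 4.39% of all genes called in either direction. The summed level of these markers was 36870 to 47610 units on apical arrays, 34310 to 61480 on middle arrays and 9163 to 33070 on basal arrays. The part of neurons in these differences was not tested.

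Proteases that cut fibronectin and their inhibitors made up a list of 13, and none was called. By the contrast test at any size 3 rose toward the apex and 3 toward the base, beside 17.6% and 21.6% of all genes. With scaling to the spike-in probes these counts were 0 and 8, and Timp2 was then called, at -1.02. Timp2, an inhibitor of matrix metalloproteinases with the highest signal of the list, read 7462 ± 305 units in the apex and 11330 ± 1070 in the base (SD, n = 4 each), a log2 difference of -0.60 (adjusted p = 0.00014). Adamts5, singled out after its value was seen, encodes a protease of the matrix and had the largest difference in the other direction, 0.82 (adjusted p = 0.0038), which did not pass with scaling to the spike-in probes.

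**Figure D5:**
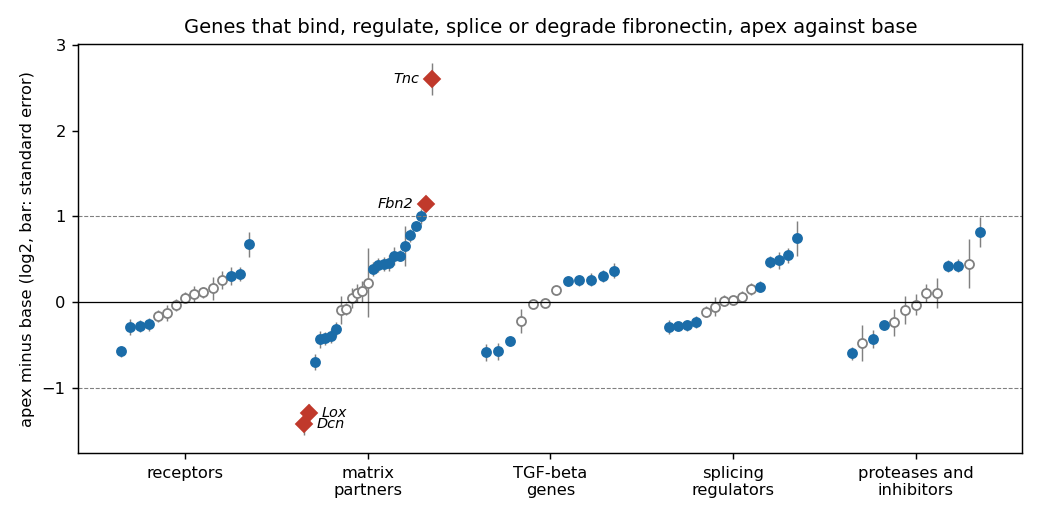
Difference of mean log2 signal between apex and base (y axis, bars give the standard error, n = 4 arrays a turn) for the 80 genes of the 5 lists (x axis). Diamonds are the 4 called genes, filled circles passed limma's contrast test at any size, open circles did not, and the dashed lines mark 2-fold; Tnc stands highest at 2.60 and Dcn lowest at -1.42.

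The genes whose levels followed Fn1 most closely over the 12 arrays were ranked by Pearson correlation of gene-level log2 signals. The ranking was among 14159 measured genes with 3 or more probes. The 10 highest were Ecel1, Plxna3, Tsga14, Dpp10, Sfrp1, Krt19, Cxadr, Gramd1c, Itih5 and Eya4, with correlations from 0.993 to 0.980. These correlations mostly carry the difference between turns. With turn means removed they were between 0.253, for Eya4, and 0.848, for Ecel1. Ecel1, which encodes a membrane metalloprotease-like protein, read 393.7 ± 87.7, 94.74 ± 19.4 and 55.89 ± 7.81 units in apex, middle and base. Sfrp1, a secreted inhibitor of Wnt signals, read 982.2 ± 97.1, 317.2 ± 13.9 and 166.9 ± 19.5 units. Krt19, a keratin of epithelia and mesothelia, read 1579 ± 181, 637.9 ± 61.5 and 391.8 ± 29.9 units (SD, n = 4 each). Since these genes were picked for their likeness to Fn1, their order of turns was fixed by that choice.

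Marker genes of cell types also differed between the turns. The list for the tympanic border and mesothelial cells, which line the underside of the basilar membrane, had a summed level of 5533 to 6568 units on apical arrays, 2419 to 3238 on middle arrays and 934.9 to 1088 on basal arrays. Emilin2 and Krt19 were the largest terms of this sum. The list had 4 of 8 genes called higher in the apex (Emilin2, Krt19, Tnc and Notum), beside 4.39% of all genes called in either direction. Its mesothelial markers Upk3b and Wt1 read 21.04 and 21.51 units in the apex and did not pass limma's contrast test. Msln passed that test as higher in the base, at 47.05 units in the apex and 73.08 in the base (log2 difference -0.62, adjusted p = 0.0075). Lrrn4 was not measured. Hair cell markers had 7 of 9 genes called higher in the apex, beside the same 4.39% of all genes. Their summed level was 8652 to 9502 units on apical, 7880 to 8686 on middle and 3695 to 5936 on basal arrays. Cib2, which was not called, was the largest term of this sum, at 6554, 6230 and 3868 units in apex, middle and base. Of 7 Schwann cell markers none was called and 6 passed the contrast test as higher in the apex, beside 17.6% of all genes. Their sums were 14460 to 16270, 15560 to 18480 and 7845 to 13940 units on apical, middle and basal arrays. The summed level of 9 spiral ligament fibrocyte markers was lower in the apex, at 329300 to 362200 units, than in the base, at 611800 to 676600, with Otos and Coch the largest terms. Of these 9, 8 passed the contrast test as higher in the base, beside 21.6% of all genes, and Otos alone was called. Otor passed the contrast test as higher in the apex, at 0.60 (adjusted p = 0.0087). Liver plasma proteins were looked at because plasma fibronectin comes from the liver. Alb, their most abundant member in liver, read 14.95, 16.35 and 15.94 units in apex, middle and base, and the list was higher in the base through Trf and Ttr. Of 9 bone markers, Dmp1 alone was called, as higher in the base, beside 4.39% of all genes called in either direction. The apical arrays spread widely for Ibsp (573.8 ± 849 units), Bglap2 (4947 ± 4890) and Mepe (340.7 ± 279), and less for Spp1 (41610 ± 4080) (SD, n = 4 each). The part of bone in the spread of apical arrays, and of any cell type in the Fn1 gradient, was not tested.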

How the data were processed

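The study measured 12 single-color exon arrays, 4 for each cochlear turn. The authors labeled RNA with Cy3 and made the deposited fluorescence intensity of each spot with Agilent Feature Extraction 10.7.3.1, which subtracted background and corrected trends across the array but did not normalize one array to another. Spots at background carry small positive stand-in values, so ratios of dim probes depend on that step. Probe positions and gene names are those of the files (mm9, NCBI37); no genome was used.

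Of 180880 spots per array, 7914 controls and 622 spots flagged on any array were left out; 1 of the 92 Fn1 spots was among these. Each array was scaled so that its 75th percentile, between 534.6 and 722.1 before scaling, equaled 641.3. Signals were log2 transformed, spots of a probe averaged, and probes of a gene averaged, giving 165865 probes and 19505 genes. The number of arrays limits precision.

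Genes were tested over all 12 arrays with limma 3.58.1 (lmFit, eBayes) in R 4.3.3, adjusted by the Benjamini-Hochberg method over all genes. Scripts were tested on simulated data. A bound for a probe not well above background on any array of a turn took, on each array, the higher of its own signal and the lowest signal well above background. Such bounds hold for the processed signals and were not computed under other background corrections. Named genes were Fn1, up to 4 called genes of each list with the largest difference, the brightest gene of a list with none called, and the 10 genes most correlated with Fn1; others are said to be chosen after their values were seen. The members, lists and tests were chosen with earlier results of these data known.

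Alternatives were quantile, median and spike-in scaling, normexp background correction, 16 added to each signal, flagged spots kept, the median of probes, only probes well above background on all 12 arrays or on the 4 arrays of a turn, limma's trend and robust options, an unmoderated F test, only the 2 turns compared, a replicate block, the value table of the series (the same processed signals) and leaving out each array. The extra domain differences, gene-by-gene values and normexp with offset 0 were alternatives chosen after seeing the data.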

Additional observations from a re-analysis of the deposited data

How the results depend on the processing

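The Fn1 gradient kept its direction under every alternative run, and its size moved with the background and the scaling. The gene-level difference between apex and base, 1.90 log2 units, was 1.48 with scaling to the spike-in probes, 1.46 with normexp at offset 50, 1.71 with normexp at offset 0 and 1.75 with 16 added to each signal. Apex over middle, 1.31, was 1.04 with normexp. Middle over base, 0.58, was 0.32 with spike-in scaling and 0.42 with normexp. Spike-in scaling moved the median of all genes from -0.04 to -0.45 for apex minus base, and scaling to the median moved it to -0.15. The SD over probes for apex over base, 0.511, was 0.336 with normexp, 0.405 with 16 added and 0.338 with probes well above background on all 12 arrays. For middle over base, 0.260, it was 0.118, 0.184 and 0.124 under the same settings. The EDB difference relative to the common probes, 2.37 for apex over base, was 0.82 with normexp at offset 50, 1.61 at offset 0 and 1.65 with 16 added. For apex over middle, 0.92, it was 0.51 at offset 50 and 0.77 at offset 0. The EDA difference, 0.99 for apex over base, reversed to -0.74 with normexp at offset 50 and to -0.31 at offset 0, and was 0.0026 with 16 added. For apex over middle, 0.88, it reversed to -0.39 at offset 50, and was 0.056 at offset 0 and 0.20 with 16 added. Dim signals limit these values, since the EDB probe in the base and the EDA probe in middle and base were not well above background; the cause was not tested further.

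Of the 80 listed genes, 4 were called for apex against base. The count was 2 with normexp, 2 with probes above background on all 12 arrays, 3 with quantile normalization and 3 with 16 added. It was 5 with the median of probes and 6 with spike-in scaling. Of those 6, 1 rose toward the apex and 5 toward the base, where the main split was 2 and 2. For apex against middle 1 was called, and also 1 with spike-in scaling. With normexp and with probes above background on all 12 arrays 0 were called. For middle against base 0 were called, and 1 with the median of probes. Among single genes, Srsf5 reversed to 0.17 with quantile normalization and, with each array left out, ran from -0.13 to 0.0014, and Itgb1 reversed to -0.067 with median scaling and to -0.37 with spike-in scaling, and passed as higher in the apex, at 0.17, with quantile normalization.

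Leaving out each array in turn gave 1.83 to 1.95 for the Fn1 difference between apex and base, 1.25 to 1.38 for apex over middle and 0.51 to 0.64 for middle over base. The SD over probes was 0.484 to 0.542, 0.272 to 0.344 and 0.242 to 0.288 in the same order, and the count of probes 2-fold or more higher in the apex was 43 to 45. The EDB difference was 2.23 to 2.51 and 0.79 to 0.98, and the EDA difference 0.73 to 1.27 and 0.51 to 1.18, for apex over base and over middle. Called genes numbered 4 to 6, 1 to 1 and 0 to 1 in the 3 comparisons, the last being Adamts5 without middle array 2 or basal array 3, and 44 to 50, 12 to 20 and 21 to 28 passed the contrast test at any size.

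The labels do not say whether the same sample number marks the same mouse, and the tests above treated the turns as separate samples. Of 12 same-numbered pairs, 6 had deviations correlated over 0.1 (range -0.04 to 0.23), and 9 of 12 arrays correlated best with their own number. These values do not decide the question, and same-numbered arrays may come from the same mouse. With the number as a replicate block, the called genes stayed at 4, 1 and 0, and 52, 26 and 30 passed the contrast test at any size, where 49, 18 and 26 did without it.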
